A study of Homo sapiens with 6 samples.

Results

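The p53 response was examined through 9 genes that are widely used as its readout, namely CDKN1A, MDM2, GADD45A, BTG2, TP53INP1, SESN1, FAS, BBC3 and BAX. They were taken by symbol from count tables of 16907 genes, in which all 9 were found, and all 9 passed the filter on low counts (a total of at least 10 over the libraries), as did 14853 genes in all. The cells were LX-2, a human line with the properties of activated hepatic stellate cells, the liver cells that become collagen-producing myofibroblasts. Both groups were grown in medium with fetal bovine serum and received siRNA at 20 nM for 72 h with the same transfection reagent. The siControl group (3 libraries) received a control siRNA, whereas the siOGT group (3 libraries) received one against OGT, the transferase that puts the sugar O-GlcNAc on nuclear and cytoplasmic proteins. A siControl and a siOGT library with the same replicate number form a pair, and the cells are 1 line. The 9 genes were chosen by their siOGT to siControl differences in these same libraries. Their differences are therefore a description and carry no p-values.

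p53 is a transcription factor that is held low in unstressed cells, mainly because MDM2 ubiquitinates it, and that is stabilised after DNA damage and other stresses. It binds response elements built from paired decamers and raises genes that halt the cell cycle, repair DNA, restrain growth signalling or trigger apoptosis, and also MDM2 itself, which closes a negative feedback loop. Several of its targets, GADD45A and CDKN1A among them, are also induced without p53 by other stress and growth-arrest pathways, so their RNA level alone does not measure p53 activity. In the liver, growth arrest and senescence of activated stellate cells have been linked to p53.

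Sequences matching the p53 consensus were looked for in the 6-kb window around each start (3000 bases on either side of the start of the canonical GENCODE 44 transcript, hg38), because they show which of the 9 genes carry letters close to the consensus nearby. The search used the p53 consensus as a pair of abutting 10-base half-sites, each with a 4-base core that begins with C, ends with G and has A or T at both middle positions, with at most 2 mismatches outside the cores. The consensus is its own reverse complement, so both strands were covered. Matches were found near CDKN1A, GADD45A, BTG2 and FAS, that is, for 4 of 9 genes. They are printed 5′ to 3′ on the plus strand, which is the coding strand of all 4 genes, with the cores in capitals.
CDKN1A, chr6:36676449-36676468: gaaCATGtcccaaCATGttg
GADD45A, chr1:67686775-67686794: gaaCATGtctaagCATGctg
BTG2, chr1:203303642-203303661: acgCATGttcaggCATGcat
FAS, chr10:88991309-88991328: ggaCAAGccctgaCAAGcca

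The CDKN1A match begins at position -2265 from the canonical start and touches an exon of another transcript, whereas that of BTG2 begins at -1877, before every annotated transcript. The matches of GADD45A and FAS lie in intron 3 and intron 1, with first bases at positions 1575 and 512 counted from the start as 1. The GADD45A match has 1 mismatch and the other 3 have 2. Among 14052 protein-coding genes tested, 2.85% had such a match in a window of this size, and 0.477% had one with at most 1 mismatch. Among the other p53 targets described further on, 17 of 67 windows had a match (25.4%). A match is a description of letters and does not show binding in these cells, and a gene without one may still carry an element that is spaced, more divergent or farther away.

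The libraries held between 25996770 and 27966801 expected counts. The 9 genes together took between 0.0195% and 0.0209% of them in siControl and between 0.0249% and 0.0296% in siOGT. Most counts of the 9 genes came from CDKN1A, GADD45A and BAX, so this share says little about the other members. OGT itself fell from 145 ± 28.9 to 32.0 ± 6.94 CPM (counts scaled to a common library size, SD, n = 3 each) and was lower in siOGT in 3 of 3 pairs. The stellate label was checked with mesenchymal and other markers. VIM and COL1A1 were abundant (between 3027 and 3283 CPM and between 1737 and 3175 CPM), but DES and LRAT, both often used for stellate cells, were at or near 0. ACTA2, the study's myofibroblast marker, was only between 4.83 and 9.69 CPM, PDGFRA at most 10.1 CPM and LUM at most 0.157 CPM. Of 10 mesenchymal markers tested, 1 rose (TAGLN) and 4 fell (COL1A1, COL1A2, COL3A1 and PDGFRB). Among all genes 12.7% were called in each direction. The summed level of these markers, mostly VIM and COL1A1, was between 6471 and 7828 CPM in siControl and between 5843 and 6877 CPM in siOGT. Hepatocyte markers summed to at most 0.296 CPM in any library, epithelial markers to between 4.70 and 8.38 CPM and endothelial markers to between 3.00 and 7.86 CPM, with overlapping ranges in both groups. Leukocyte markers summed to between 130.7 and 162 CPM in siControl and between 176 and 208 CPM in siOGT. CD68, a lysosomal membrane protein that many cultured cells express, made up most of this and rose (log2 difference 0.46, edgeR adjusted p-value 9.472e-04), whereas PTPRC, the defining leukocyte marker, was between 0.333 and 0.855 CPM. Among endothelial markers VWF was lower, at 1.35 ± 0.671 CPM against 2.60 ± 1.37 CPM (SD, n = 3 each, edgeR adjusted p-value 0.0108). These markers were named after their values were seen, and their part in the differences of the p53 genes was not tested. In bulk RNA a change in all cells and a change in some of them cannot be told apart.

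Among the 9 genes, GADD45A, CDKN1A and BAX were called higher in siOGT, and none was called lower. A gene was called when its adjusted p-value was 0.05 or less in the paired edgeR test of all genes. This is 3 of 9 genes in the upward direction, and the share of all genes called higher was 12.7% (25.4% in either direction). The median log2 difference of the 9 genes was 0.16, against 0.0068 over all genes tested. Nothing is read from these figures, since the genes were picked with this comparison known. The calls depended on the pairing. Without the replicate block edgeR called 0 of the 9 genes (3 had an unadjusted p-value under 0.05) and 0.875% of all genes. DESeq2 called GADD45A and CDKN1A both with the block (16.3% of all genes called) and without it (5.72%), but BAX in neither.

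**Figure D1:**
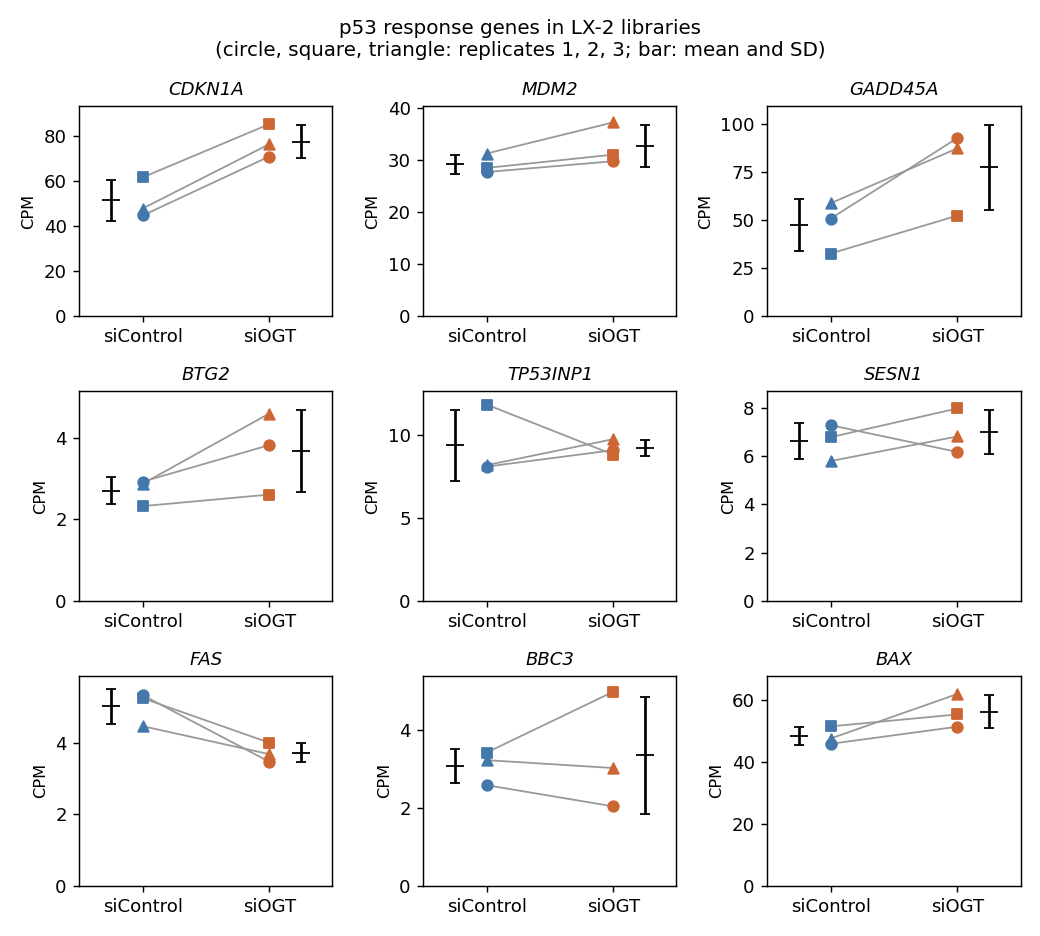
Level of each of the 9 genes in every library (CPM, vertical axes from 0). Circles, squares and triangles are replicates 1, 2 and 3, grey lines join the libraries of a pair, and the bars give the mean and SD of 3 libraries. CDKN1A, GADD45A, MDM2, BTG2 and BAX are higher in siOGT in all 3 pairs, FAS is lower in all 3, and TP53INP1, SESN1 and BBC3 cross.

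GADD45A (chromosome 1, 67685201 to 67688334, plus strand, 4 exons in the canonical transcript) encodes a small stress protein that binds PCNA and CDK1 and activates the kinase MAP3K4. Its level was 50.8, 32.5 and 58.8 CPM in siControl 1 to 3 and 92.8, 52.3 and 87.4 CPM in siOGT 1 to 3. The groups overlapped, as siOGT 2 was below siControl 3, but each siOGT library was above its own partner. The means were 47.3 ± 13.5 and 77.5 ± 22.0 CPM (SD, n = 3 each). The fitted log2 difference was 0.71 (SE 0.073, 95% confidence interval 0.56 to 0.86), that is, 1.64-fold, and the ratios within pairs were 0.87, 0.69 and 0.57 on the log2 scale. Replicate 2 had the lowest GADD45A of its group in both groups, so much of the spread was shared by partners. The consensus match printed above lies within this gene, in intron 3.

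CDKN1A (chromosome 6, 36676460 to 36687337, plus strand) encodes p21, which inhibits cyclin-dependent kinases and is the main executor of p53-dependent G1 arrest. It stood at 44.7, 61.6 and 47.8 CPM in the siControl libraries and at 70.9, 85.4 and 76.4 CPM in the siOGT libraries. The groups did not overlap, a pattern that 12.1% of all genes showed in the upward direction. Means of 51.4 ± 9.04 and 77.6 ± 7.28 CPM (SD, n = 3 each) gave a log2 difference of 0.60 (SE 0.070, 95% confidence interval 0.46 to 0.75), or 1.52-fold. Within pairs the log2 ratios were 0.67, 0.47 and 0.68. In contrast to GADD45A, CDKN1A was highest in replicate 2 of both groups.

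BTG2, a member of the BTG/TOB family of antiproliferative proteins that act on mRNA deadenylation, is on chromosome 1 (203305491 to 203309602, plus strand). It was scarce, with 78, 59 and 80 counts in siControl and 103, 70 and 123 counts in siOGT. In CPM this was 2.92, 2.32 and 2.87 against 3.81, 2.60 and 4.59, and siOGT 2 fell within the siControl range. The log2 difference was 0.42 (SE 0.19, 95% confidence interval 0.024 to 0.82). It was higher in 3 of 3 pairs but was not called.

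Among regulators of p53 itself, MDM2 (chromosome 12, 68808177 to 68845544, plus strand), the ubiquitin ligase of the feedback loop, had 27.6, 28.4 and 31.2 CPM in siControl and 29.7, 31.0 and 37.2 CPM in siOGT. The groups overlapped, and each siOGT library was slightly above its partner. The log2 difference was 0.16 (SE 0.075, 95% confidence interval 0.0038 to 0.32), equivalent to 1.12-fold, and MDM2 was not called. Its counts were fractional in 5 of 6 libraries, meaning that RSEM divided some reads between genes. GENCODE 44 places a processed pseudogene on the same strand over 5.29% of the exonic bases of MDM2. That pseudogene was not found among the genes tested, and which genes shared the divided reads was not examined. TP53INP1 (chromosome 8, 94925972 to 94949378, minus strand), a stress-induced cofactor of p53 that also acts in autophagy, had 8.08, 11.8 and 8.17 CPM in siControl. In siOGT it had 9.07, 8.81 and 9.73 CPM. Its difference was -0.0072 on the log2 scale (SE 0.13, 95% confidence interval -0.28 to 0.27), with replicate 2 lower and replicates 1 and 3 higher in siOGT.

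SESN1 (chromosome 6, 108984309 to 109094846, minus strand) encodes sestrin 1, which restrains the growth kinase complex mTORC1. The siControl libraries had 7.29, 6.80 and 5.80 CPM and the siOGT libraries 6.18, 7.99 and 6.83 CPM, with overlapping ranges. The difference was 0.076 on the log2 scale (SE 0.13, 95% confidence interval -0.21 to 0.36), and siOGT was lower in pair 1 and higher in pairs 2 and 3.

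Of the 3 genes of cell death, 1 was called. BAX (chromosome 19, 48954815 to 48961798, plus strand), which permeabilises the outer mitochondrial membrane, had 45.8, 51.5 and 47.5 CPM in siControl. In siOGT it had 51.4, 55.3 and 61.9 CPM, and siOGT 1 lay just below siControl 2. The log2 difference was 0.22 (SE 0.073, 95% confidence interval 0.064 to 0.37) and BAX was called. Its call was lost without replicate 1 (log2 difference 0.24), without replicate 3 (0.13) and with DESeq2 (0.21). BBC3, which encodes the BH3-only protein PUMA (chromosome 19, 47220822 to 47232766, minus strand), had 69, 87 and 90 counts in siControl. It had 55, 134 and 81 counts in siOGT, so that siOGT held both the lowest and the highest library. Its log2 difference of 0.068 (SE 0.20) had a 95% confidence interval from -0.36 to 0.50, and without replicate 2 it was -0.21. The interval holds both falls and rises, so these counts give no direction for BBC3.

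FAS, the death receptor for FAS ligand (chromosome 10, 88953813 to 89029605, plus strand), was the 1 gene of the 9 whose levels were all lower in siOGT. Its expected counts were 143, 134 and 125 in siControl and 93.7, 108 and 99.0 in siOGT, or 5.35, 5.26 and 4.48 against 3.48, 4.01 and 3.69 CPM. The groups did not overlap, which 11.8% of all genes showed in the downward direction. The log2 difference was -0.43 (SE 0.16, 95% confidence interval -0.77 to -0.095) and missed the call, though FAS was called when no filter on low counts was applied. FAS counts were fractional in 5 of 6 libraries. FAS shares 166 exonic bases (0.566%) with STAMBPL1 on the same strand. It shares 387 with ACTA2 on the other strand, which strand-specific counting separates.

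**Figure D2:**
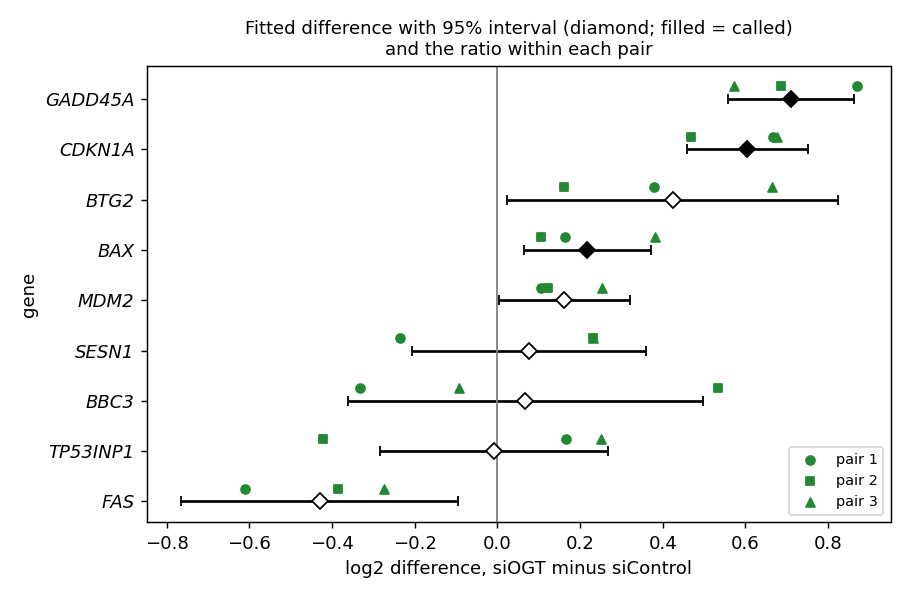
Difference between siOGT and siControl for the 9 genes (log2, horizontal axis). Diamonds are values from the paired edgeR fit with 95% confidence intervals, filled where the gene was called, and green symbols are the log2 ratios of the 3 pairs. GADD45A and CDKN1A lie at 0.71 and 0.60, and FAS lies at -0.43.

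Levels can be set beside each other only per transcript length. Divided by the length of the canonical transcript, siControl levels were in the order BAX (60.7 ± 3.63 CPM per kb, SD, n = 3), GADD45A (35.0 ± 9.96), CDKN1A (24.3 ± 4.27), MDM2 (3.88 ± 0.25), TP53INP1 (1.67 ± 0.381), BBC3 (1.67 ± 0.237), FAS (1.361 ± 0.130), SESN1 (1.17 ± 0.134) and BTG2 (0.990 ± 0.122). Among neighbours, the means plus or minus SD of GADD45A and CDKN1A overlapped, as did those of TP53INP1, BBC3 and FAS, of FAS and SESN1, and of SESN1 and BTG2. In siOGT the first 4 places were the same, with BAX at 70.7 ± 6.71, GADD45A at 57.3 ± 16.3, CDKN1A at 36.6 ± 3.44 and MDM2 at 4.35 ± 0.533 CPM per kb (SD, n = 3). FAS moved from the seventh to the ninth place there, at 1.01 ± 0.0726 CPM per kb. Its mean plus or minus SD in siOGT overlapped those of SESN1 (1.24 ± 0.162), BTG2 (1.34 ± 0.367) and BBC3 (1.81 ± 0.81). This change of place is therefore within the spread. These levels depend on the transcript taken for each gene, since BAX was divided by 795 bases and MDM2 by 7490.

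The 9 genes did not vary together between replicates. For GADD45A the replicate number accounted for 50.3% of the variance of log2 CPM, the group for 48.3% and the rest for 1.43%. The corresponding shares for CDKN1A were 20.2%, 77.9% and 1.95%. For TP53INP1 and SESN1 the unexplained rest was the largest share (66.0% and 55.0%), and for BBC3 the replicate number (77.3%). Over the 12373 genes whose mean reached 1 CPM, the median shares were 48.6% for the replicate number, 27.1% for the group and 10.7% for the rest. Replicate 2 lay below its group mean for GADD45A (by -0.50 in siControl and -0.52 in siOGT on the log2 scale) and BTG2 (-0.21 and -0.45). It lay above for CDKN1A (0.28 and 0.14) and BBC3 (0.16 and 0.66). BTG2 was the gene of the 9 that followed GADD45A most closely over the 6 libraries (Pearson r = 0.92), and BAX followed CDKN1A (r = 0.85), whereas r between GADD45A and CDKN1A was 0.31. These correlations describe 6 libraries that share the group and the replicate structure.

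**Figure D3:**
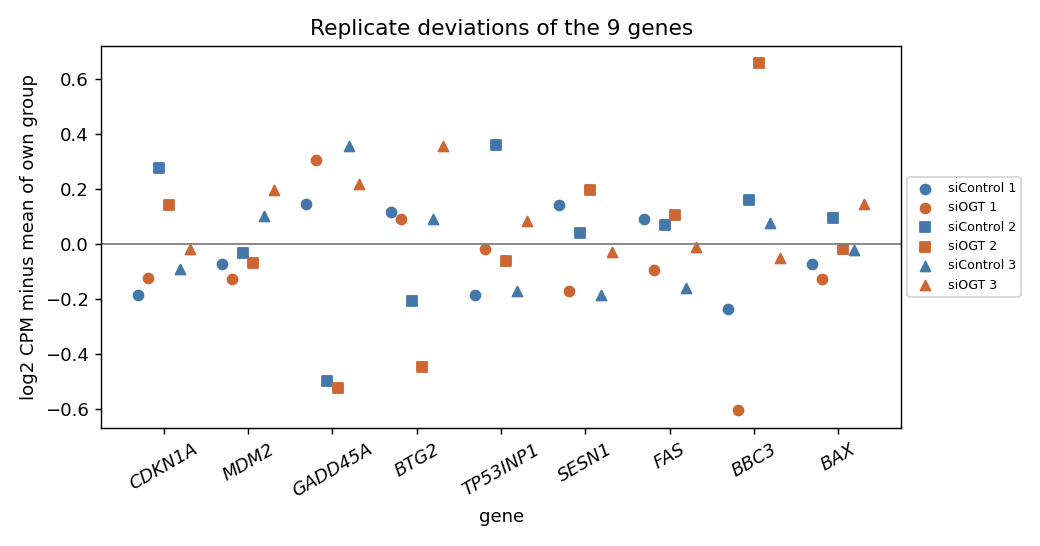
Deviation of each library from the mean of its own group (log2 CPM, vertical axis) for the 9 genes, with siControl in blue and siOGT in orange and circles, squares and triangles for replicates 1, 2 and 3. Replicate 2 is the lowest for GADD45A and BTG2 and the highest for CDKN1A and BBC3, in both groups.

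Among the 9620 genes whose mean reached 10 CPM, those most like GADD45A over the 6 libraries were ZNF622 (r = 0.999), NOL8 (0.998), PHYH (0.998), TLK2 (0.996) and PRKRIP1 (0.995). Those most like CDKN1A were SOX13 (0.996), PHF3 (0.995), MCCC2 (0.995), ATP6AP1 (0.995) and UBLCP1 (0.988). No gene was in both sets. With so many genes ranked on 6 libraries, values close to 1 are a description only.

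Of 16 genes of the p53 family and its regulators, 6 rose, none fell and 10 were not called. The share called higher was 37.5%, against 12.7% of all genes. This list and those below were chosen with earlier results known, so their counts are a description only. RNA does not report on the stability or activity of the p53 protein, which was not measured here. PPM1D, a phosphatase that switches p53 signalling off and is itself a p53 target, had 30.4, 25.97 and 29.6 CPM in siControl and 35.2, 29.7 and 40.8 CPM in siOGT. It was higher in 3 of 3 pairs by a log2 difference of 0.29 (SE 0.079, edgeR adjusted p-value 0.0114), but the adjusted p-value was 0.102 when replicate 3 was left out and 0.0549 in DESeq2. MDM4, the p53-binding relative of MDM2, had 16.6, 13.1 and 12.1 CPM against 19.2, 12.5 and 19.4 CPM. Its log2 difference was 0.28 (SE 0.12, edgeR adjusted p-value 0.0875), and the log2 ratios within pairs were 0.21, -0.067 and 0.68. Without replicate 2 MDM4 was called (0.44, edgeR adjusted p-value 0.00266), whereas without replicate 3 its log2 difference was 0.073 (edgeR adjusted p-value 0.686). It was also called when no filter on low counts was applied (edgeR adjusted p-value 0.0348). The deacetylase gene SIRT1 rose by 0.49 (edgeR adjusted p-value 3.889e-04) and the acetyltransferase gene KAT5 by 0.38 (5.118e-04), both on the log2 scale and in 3 of 3 pairs. RCHY1, a ubiquitin ligase for p53, rose by 0.34 (0.0413) but was higher in only 2 of 3 pairs. Its call was lost with DESeq2, without replicate 1 and without replicate 3, and without replicate 2 its log2 difference was 0.53. EP300 and CREBBP encode acetyltransferase coactivators of p53 and of many other factors and were named after their values were seen. They rose by 0.27 and 0.24 (edgeR adjusted p-values 0.00706 and 0.0207) in 3 of 3 pairs, though CREBBP by only 0.048 in pair 3. How these rises depend on the settings was not examined. Without the block edgeR called none of PPM1D, SIRT1, KAT5 and RCHY1.

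Among 8 kinases and mediators of the DNA damage response, 2 rose (25%) and 1 fell (12.5%), against 12.7% of all genes called in each direction. MDC1, a scaffold at DNA breaks, rose by 0.47 (edgeR adjusted p-value 1.161e-04), and HIPK2, a kinase that phosphorylates p53, rose by 0.29 (0.00481). PRKDC, the catalytic subunit of the DNA-dependent protein kinase, fell by 0.52 on the log2 scale (edgeR adjusted p-value 1.741e-04), with means of 375 ± 83.1 and 265 ± 72.5 CPM (SD, n = 3 each). ATM, ATR, CHEK1, CHEK2 and TP53BP1 were not called. HIPK2 was no longer called without replicate 1, and none of these 3 was called by edgeR without the block.

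A wider set of 68 other p53 targets was then described, of which 67 passed the filter and 58 reached a mean of 1 CPM. Of the 67, 9 rose (13.4%, against 12.7% of all genes called higher), 10 fell (14.9%, against 12.7% called lower) and 48 were not called. The median log2 difference was -0.013, against 0.0068 over all genes tested. The shares were thus close to those of all genes in both directions. Without the replicate block, edgeR called 1 of them higher (SESN2) and 1 lower (CD82). Without replicate 1 it called 4 higher and 5 lower.

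Of 12 targets in metabolism and autophagy, 3 rose (25%, against 12.7% of all genes called higher) and none fell. SESN2, the sestrin most often linked to amino acid and oxidative stress, had 40.0, 35.9 and 41.4 CPM in siControl and 65.8, 53.1 and 66.5 CPM in siOGT. The groups did not overlap, and the log2 difference was 0.66 (SE 0.069, edgeR adjusted p-value 5.239e-06), whereas that of its relative SESN1 was 0.076. TIGAR, a fructose bisphosphatase that lowers glycolytic flux, rose by 0.41 (0.00243) and SUSD6 by 0.31 (0.00332), each in 3 of 3 pairs. SUSD6 lost its call without replicate 1.

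Of 9 targets in arrest and repair, 2 rose (22.2%, against 12.7% of all genes called higher) and none fell. PLK3, a stress-responsive kinase, rose by 0.26 (edgeR adjusted p-value 0.0222) and DDB2, which recognises ultraviolet damage, rose by 0.29 (0.0117), but neither was called with DESeq2 (0.115 and 0.0611). Both lost their calls without replicate 1, PLK3 also without replicate 2 and DDB2 also without replicate 3. CCNG1, XPC, POLH, RRM2B and AEN, often listed with them, were not called, with log2 differences from -0.20 to 0.18.

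Of 18 targets in cell death, 1 rose (5.56%) and 4 fell (22.2%), against 12.7% of all genes called in each direction. FDXR, the mitochondrial ferredoxin reductase, fell by 0.54 on the log2 scale (SE 0.10, edgeR adjusted p-value 0.00102), with 14.6 ± 0.883 CPM in the controls and 10.03 ± 1.21 CPM after siOGT (SD, n = 3 each). TP53I3, a quinone oxidoreductase, fell by 0.41 (0.00446) and NINJ1, which mediates plasma membrane rupture, fell by 0.24 (0.0128) on the log2 scale. PHLDA3, a repressor of AKT, rose by 0.33 (0.00541). PHLDA3 lost its call without replicate 1, and NINJ1 without replicate 1 and without replicate 2. PMAIP1 and TNFRSF10B, which encode the BH3-only protein NOXA and a receptor of TRAIL, were not called (-0.12 and 0.095).

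Of 9 secreted and surface targets, 1 rose and 1 fell (11.1% each, against 12.7% of all genes called in each direction). The gene that rose is not reported here. CD82, a tetraspanin, had means of 86.0 ± 11.1 and 53.3 ± 4.99 CPM (SD, n = 3 each). It changed by -0.69 on the log2 scale (SE 0.066, edgeR adjusted p-value 2.245e-06), in 3 of 3 pairs and with groups that did not overlap. GDF15, a stress cytokine, was nearly silent, with at most 0.892 CPM in any library. It was higher in 3 of 3 pairs but was not called (log2 difference 1.16, edgeR adjusted p-value 0.0747). Among 19 further targets tested, 2 rose (10.5%) and 5 fell (26.3%), against 12.7% of all genes called in each direction. ZNF79 rose by 0.47 (edgeR adjusted p-value 3.504e-04) and the decapping factor DCP1B by 0.33 (0.00481). The lowest differences were those of TRIM22 (-0.81, 0.00231), which is also an interferon-stimulated gene, FAM210B (-0.31, 0.00594) and SAC3D1 (-0.29, 0.0202). The call of FAM210B was lost without replicate 2, and that of SAC3D1 with DESeq2 and without replicate 1.

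**Figure D4:**
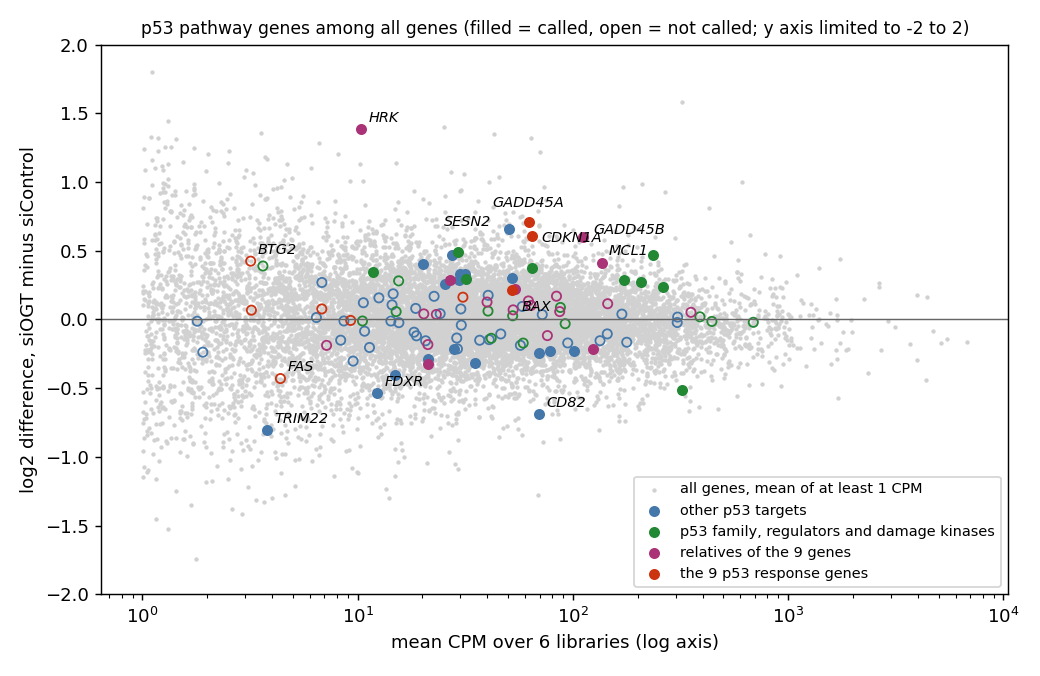
Genes of the p53 pathway among all genes whose mean reached 1 CPM (grey), with the mean level over 6 libraries on a log axis and the log2 difference between siOGT and siControl on the vertical axis. Filled circles were called and open circles were not. GADD45A, CDKN1A, SESN2 and GADD45B lie between 0.60 and 0.71, and CD82 lies at -0.69.

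Relatives of the 9 genes were compared with them. GADD45B, a paralogue of GADD45A, had 85.9, 80.5 and 99.0 CPM in siControl and 137, 115 and 151 CPM in siOGT, and the groups did not overlap. It rose by a log2 difference of 0.60 (SE 0.065, edgeR adjusted p-value 6.812e-06), close to the 0.71 of GADD45A. The other paralogue, GADD45G, was at most 0.851 CPM and was not called (0.81, edgeR adjusted p-value 0.225). CDKN1B, which encodes p27, another inhibitor of the p21 family, had means of 85.1 ± 4.16 and 88.5 ± 3.84 CPM (siControl and siOGT, SD, n = 3 each). Its log2 difference of 0.057 had a 95% confidence interval from -0.076 to 0.19 (edgeR adjusted p-value 0.558). In the BTG/TOB family BTG3 fell by 0.32 on the log2 scale (0.0169), and BTG1, TOB1 and TOB2 were not called. BTG3 lost its call with DESeq2, without replicate 1 and without replicate 2. In this list of 11 genes, 1 rose, 1 fell (9.09% each, against 12.7% of all genes in each direction) and 9 were not called.

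Of 15 genes of the FAS pathway and the BCL2 family that were tested, 4 rose (26.7%) and 1 fell (6.67%). Among all genes 12.7% were called in each direction. HRK, a BH3-only gene, rose most. It had 6.81, 3.54 and 6.74 CPM in siControl and 21.0, 8.51 and 15.7 CPM in siOGT, a log2 difference of 1.38 (SE 0.12, edgeR adjusted p-value 5.837e-07). MCL1, which encodes an antiapoptotic protein, rose by 0.41 (2.071e-04), with means of 116 ± 12.2 and 155 ± 22.0 CPM (SD, n = 3 each), and BCL2L2, also antiapoptotic, rose by 0.29 (0.0149). BOK, a relative of BAX, fell by 0.21 (0.0198). BCL2L2 lost its call with DESeq2 and without replicate 3, and BOK without replicate 1. Without the block, edgeR called none of the genes named in this list or the one before (adjusted p-value 0.0804 for HRK and 0.0511 for GADD45B), whereas DESeq2 without it called MCL1, HRK and GADD45B (0.00101 for HRK and 7.859e-04 for GADD45B).

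**Figure D5:**
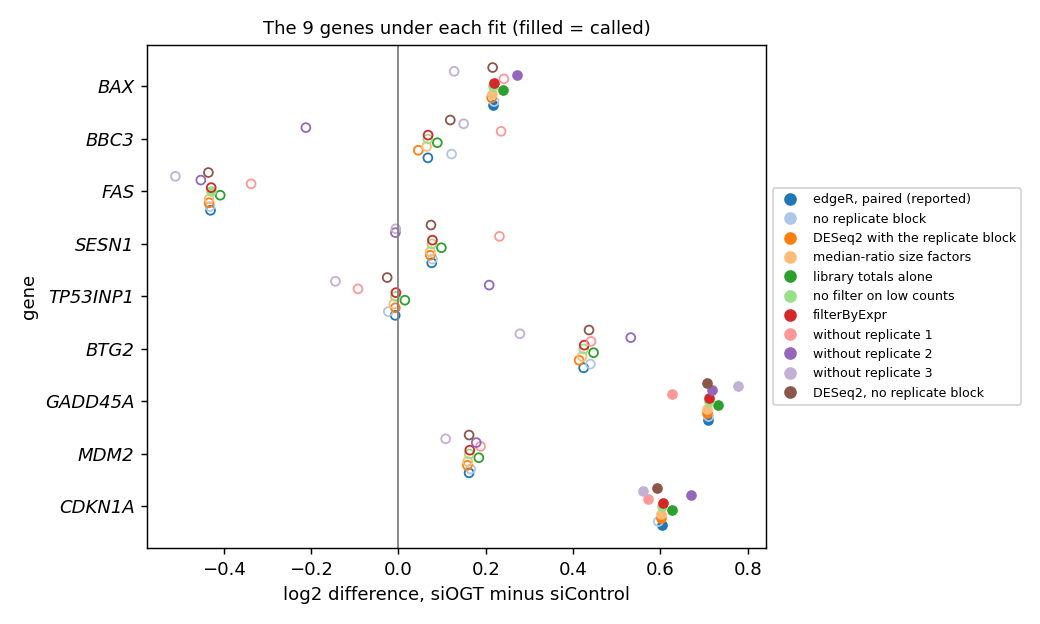
Log2 difference between siOGT and siControl of the 9 genes (horizontal axis) under the reported fit and 10 alternatives, which are offset vertically and coloured as in the key. Filled circles were called. GADD45A stays between 0.63 and 0.78 and CDKN1A between 0.56 and 0.67, while TP53INP1, SESN1 and BBC3 appear on both sides of 0.

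Of the 9 genes, 3 were called with median-ratio size factors (24.9% of all genes called), with library totals alone (25.1%), with filterByExpr (27.9%) and without replicate 2 (22.5%). There were 4 without a filter on low counts (24.2%), and 2 without replicate 1 (12.5%) or without replicate 3 (23.8%). All these fits use the libraries by which the 9 genes were chosen. Their calls and ranges therefore describe dependence on the settings and are no independent support. Over the 10 alternatives the log2 difference of GADD45A ranged from 0.63 to 0.78 and that of CDKN1A from 0.56 to 0.67, and each was called in 9, the exception being edgeR without the block. BAX ranged from 0.13 to 0.27 and was called in 5. MDM2 (0.11 to 0.19), BTG2 (0.28 to 0.53) and FAS (-0.51 to -0.34) kept their direction, FAS being called in 1 and the other two in 0. The ranges of TP53INP1 (-0.14 to 0.21), SESN1 (-0.0067 to 0.23) and BBC3 (-0.21 to 0.24) included 0.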

How the data were processed

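Polyadenylated RNA from 6 LX-2 libraries was sequenced paired-end, aligned by the authors to hg38 with Bowtie2 (2.3.5.1) and counted with RSEM (1.3.1) with strand taken into account. Deposited by the authors were RSEM expected counts per gene symbol, which were not normalized and in which reads matching several genes were divided. A table of the authors' own comparison (fold changes and p-values) was not used. The members and gene lists were chosen with earlier results of these data known, the lists from general knowledge. Counts were rounded, genes with a total below 10 were removed, and siOGT was compared with siControl by the two-sided quasi-likelihood test of edgeR (4.0.16, R 4.3.3) with TMM factors and the replicate number as a block, as the study paired its samples. Benjamini-Hochberg adjustment ran over 14853 genes, and genes with an adjusted p-value of at most 0.05 were called. Deviations from group means correlated between partners by 0.69, 0.53 and 0.33 (across 12373 genes, which are not independent). Correlations between libraries of different replicate numbers were not computed, so these values alone do not show that the numbers pair the samples. The labels give 3 biological replicates per group. Depth was between 25996770 and 27966801 counts per library. CPM used library totals times TMM factors, and log2 CPM and pair ratios a prior count of 2. SE and intervals came from the F statistic. The intervals were not adjusted for the number of genes tested or for the way the 9 genes were chosen. DESeq2 (1.42.0) was an alternative, and the tests were tried on simulated data. Named besides the 9 genes were MDM4, PPM1D, OGT and, after their values were seen, EP300 and CREBBP. Also named were the up to 3 highest and 3 lowest called genes of each list with a mean of at least 1 CPM. The 5 genes most like GADD45A and CDKN1A and genes given as not called were named too. FASLG was not analysed here, and some genes that this rule takes in are not reported here. Loci are from GENCODE 44.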

Additional observations from a re-analysis of the deposited data

How the results depend on the processing

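DESeq2 without the block was added after the data were seen. Without the replicate block edgeR called 130 genes in place of 3766, 0 of the 9 p53 response genes (3 at an unadjusted p-value under 0.05, 2 called by DESeq2 without the block), and 1 other p53 target higher and 1 lower, in place of 9 and 10. DESeq2 called 2415 genes with the block. Without it DESeq2 called 849 genes, with 2 other targets higher and 2 lower. Why the tools differed was not tested. When each pair in turn was left out, between 1803 and 3439 genes were called, from 2 to 3 of the 9 genes, from 4 to 9 other targets higher and from 5 to 12 lower, the lowest counts of genes and of other targets being those without replicate 1. Among genes not called, the log2 difference ranged over these fits from -0.14 to 0.21 for TP53INP1, from -0.0067 to 0.23 for SESN1 (-0.0058 without replicate 3) and from -0.21 to 0.24 for BBC3. With library totals alone TP53INP1 was at 0.015. That scaling moved the median of all genes by under 0.1 on the log2 scale and raised the share of upward calls from 50.1% to 56.7%. Median-ratio size factors changed no call of a named gene, and filterByExpr ended that of RCHY1. With few counts in BBC3, BTG2 and FAS, the intervals limit what could be seen.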
